A study of Mus musculus with 10 samples.

Results

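Emr1 and Cd97 encode 2 adhesion G-protein-coupled receptors and were taken by gene name from a panel of 545 endogenous genes, where each has 1 probe. Emr1, current symbol Adgre1, encodes the macrophage antigen F4/80, and Cd97 has the current symbol Adgre5. The panel was read in hippocampal microglia, the resident macrophages of the brain, from 10 male Balb/c pups aged 14 postnatal days. There were 5 control pups, numbered 1, 18, 40, 52 and 69, and 5 pups given brief daily separation (BDS), numbered 11, 17, 24, 38 and 59. In BDS the pups spent 15 min a day away from their mother over postnatal days 1 to 21, so pups taken at this age had not completed it. The labels attach this separation protocol to all 10 samples, controls included, while titles and source names call 5 of them controls, and how the control pups were handled is not stated otherwise. Each pup came from a different litter, and the microglia of each were isolated on a Percoll gradient, sorted and read in 1 lane of an nCounter immune panel for mouse, an assay that counts fluorescent barcodes on amplified cDNA.

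Adhesion G-protein-coupled receptors join a long extracellular region, which can bind proteins on other cells or in the matrix, to a membrane-spanning domain of the kind that signals through G proteins. F4/80 is the classical antibody marker of mouse tissue macrophages, microglia among them, and its extracellular part carries repeats that resemble epidermal growth factor. Cd97 has repeats of the same kind, is known from many leukocytes, and binds the complement regulator Cd55. Contacts of human CD97 with THY1 and with integrins are also known. A change in an F4/80 transcript is of interest here because the antigen is widely used to count and gate microglia.

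Lane depth differed widely and went with the groups in part. Endogenous counts ran from 76237 in control 52 to 968930 in BDS 17, and the housekeeping signal was 1.23 higher in BDS lanes on the log2 scale (exact two-sided permutation p = 0.0873, n = 5 each). Here the housekeeping signal of a lane is the geometric mean of 6 housekeeping genes, and normalized counts are raw counts scaled to it. A gene was tested if its raw counts exceeded the mean plus 2 SD of the lane's 8 negative probes in at least 4 of 10 lanes, which 283 genes did. All 7 microglia markers listed for the check of the cell label (Csf1r, Cx3cr1, Itgam, Trem2, Tgfbr1, Irf8 and Ctss) exceeded this limit in all 10 lanes. Many other tested genes did so too, and their share was not counted. Csf1r, Cx3cr1, Itgam and Trem2 also serve below as macrophage genes, so their detection does not single out microglia.

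Emr1 was well above background in every lane, and after scaling the values of the groups overlapped. In the control lanes its raw counts were 3060 in pup 1, 4487 in pup 18, 7255 in pup 40, 728 in pup 52 and 1514 in pup 69. In the BDS lanes they were 2639 in pup 11, 11366 in pup 17, 7451 in pup 24, 8141 in pup 38 and 5563 in pup 59. Even the lowest, in the shallowest lane, was 29.8 times that lane's negative-control limit.

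Between the highest and the lowest lane raw Emr1 counts differed 15.6-fold, and after scaling to the housekeeping genes 1.64-fold. Normalized counts of Emr1 in the control pups were 3823 (pup 1), 4041 (pup 18), 3944 (pup 40), 3713 (pup 52) and 4112 (pup 69). In the BDS pups they were 3192 (pup 11), 5223 (pup 17), 4308 (pup 24), 4216 (pup 38) and 3945 (pup 59). The control values thus lay inside the range of the BDS values, with BDS 11 below and BDS 17 above every control pup, so the groups overlapped. Groups did not overlap in 13 of the 283 tested genes (4.59%). In bulk samples such as these, fewer cells with the transcript and less transcript per cell cannot be told apart.

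**Figure D1:**
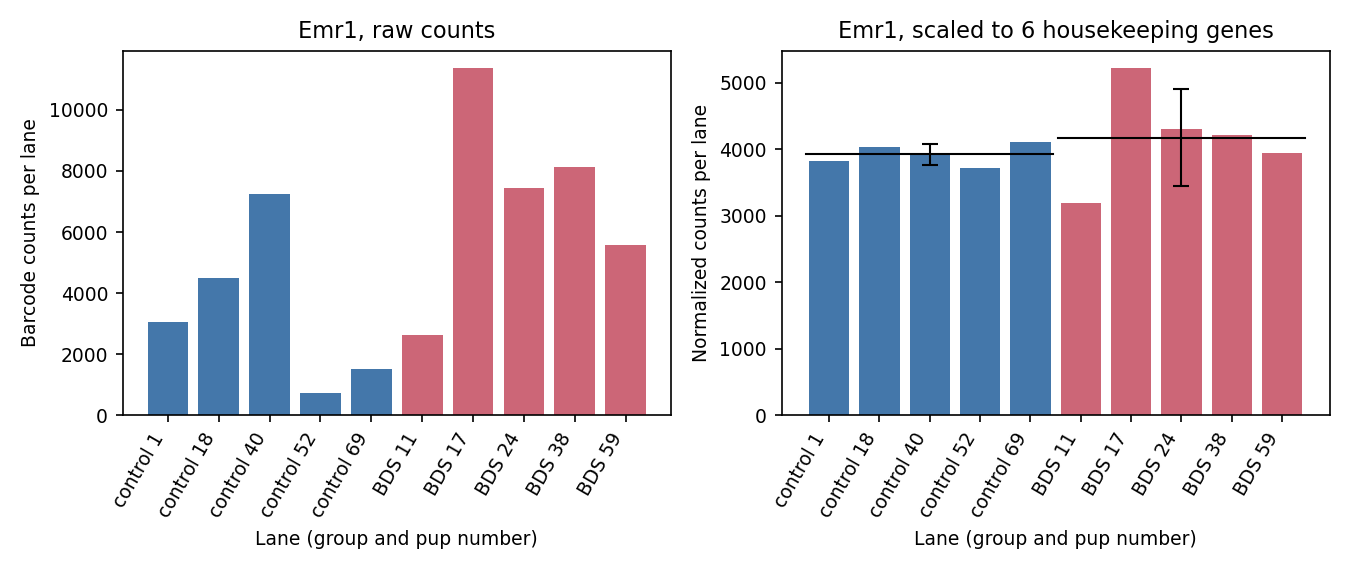
Emr1 in each of the 10 lanes, as raw barcode counts (left) and as counts scaled to the 6 housekeeping genes (right), control in blue and BDS in red; on the right the lines are group means and the bars ± 1 SD (n = 5). Raw counts run from 728 to 11366, while normalized counts run from 3192 to 5223 with both extremes among BDS pups.

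The comparison between groups asked whether BDS altered the Emr1 transcript. Control pups averaged 3926 ± 161 normalized counts and BDS pups 4177 ± 731 (SD, n = 5 each). The log2 fold change was 0.09 ± 0.16 (SE; edgeR quasi-likelihood adjusted p = 0.734 over 283 genes), a 1.06-fold difference with a 95% interval from 0.836-fold to 1.35-fold. As a share of all endogenous counts Emr1 took 0.915% ± 0.0526 in control pups and 0.947% ± 0.157 in BDS pups (n = 5 each, with p = 0.667 in an exact two-sided permutation test). A p of this size does not show that the groups were equal, and the interval covers only this scaling.

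In that edgeR fit 0 of 283 genes (0%) passed the adjusted threshold of 0.05. An unadjusted p under 0.05 was reached by 80 of the 283 (28.3%), and Emr1 was not among them (edgeR unadjusted p = 0.591). DESeq2, given the same housekeeping factors, called 25 genes at its adjusted threshold of 0.05, and Emr1 was not among these (DESeq2 adjusted p = 0.723). In the authors' deposited table Emr1 had means of 5926 (control) and 5521 (BDS), a fold change of 0.93 and an unadjusted p-value of 0.3682, as given there. The direction there is the opposite of the one above, on values whose lane factors match the housekeeping genes without Sdha.

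Relative to the rest of the panel Emr1 did not stand out in either direction. Of the 283 tested genes 141 had a lower and 141 a higher log2 fold change, so Emr1 was itself the median gene at 0.09. Its sign turned with the scaling, from 0.19 without Polr1b to -0.10 without Sdha. The panel median turned with it, from 0.19 to -0.09, and scaling to positive controls alone put Emr1 at 1.37 and the median at 1.35. The distance of Emr1 from the panel median stayed under 0.1 on the log2 scale in 23 of 27 alternatives. It exceeded that at -0.15 after background subtraction, -0.16 with lane depth as a covariate, -0.12 without control 52 and control 69, and 0.33 with no filter on low counts, where 262 more genes near background enter the median.

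**Figure D2:**
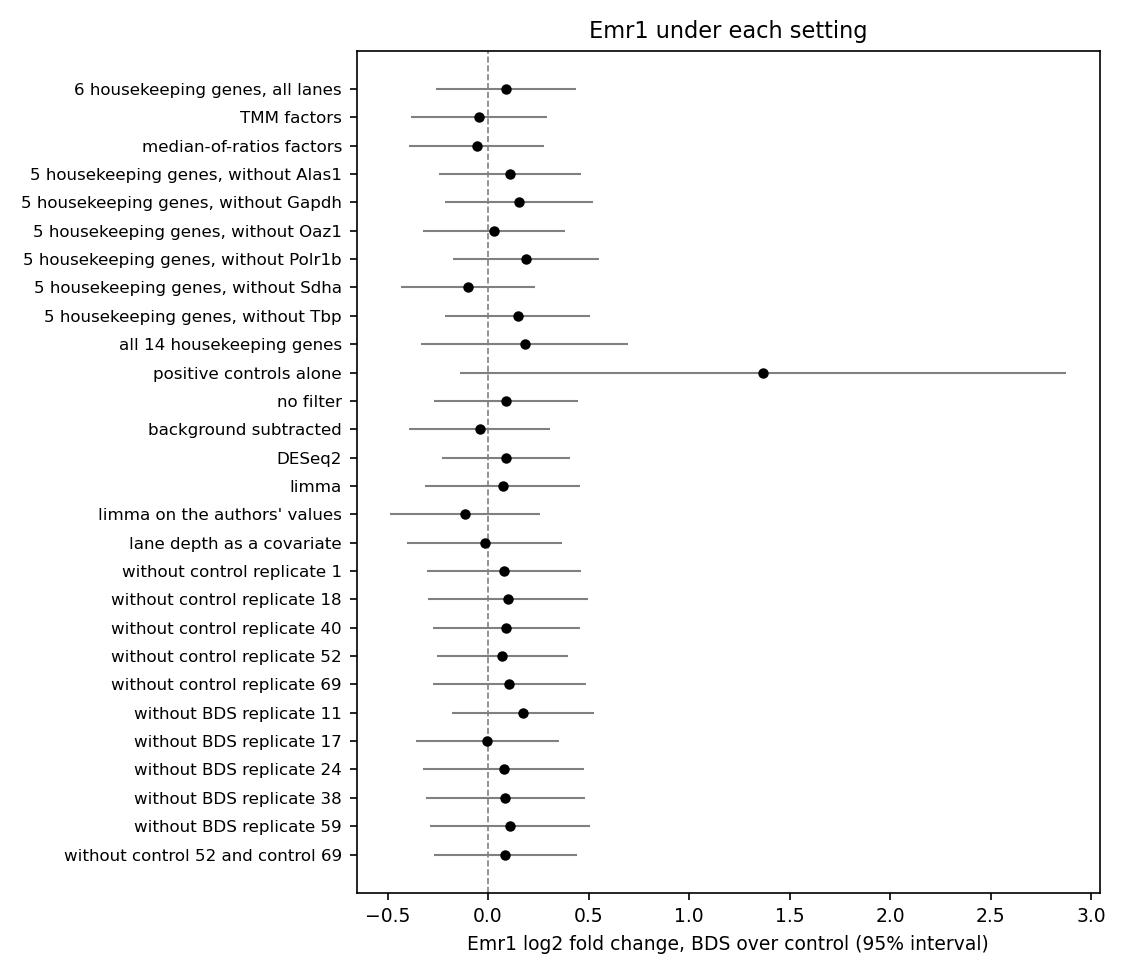
Log2 fold change of Emr1, BDS over control, under the planned setting (top) and each alternative, with points for estimates and bars for 95% intervals. The intervals drawn all include 0, and the estimates lie between -0.11 and 0.19 except for positive controls alone, at 1.37.

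Emr1 varied little among control pups. The SD of its log2 normalized counts over the 5 control lanes was 0.06, against a median of 0.46 over the 283 tested genes, and no tested gene had a smaller one. None of the 14 housekeeping genes on the panel had a smaller SD in control lanes either, the 6 used for scaling included. This held although control lanes spanned raw Emr1 counts from 728 to 7255. With 1 control lane left out, the SD of Emr1 ran from 0.046 (without control 52) to 0.069 (without control 40). Its rank moved, with 5 tested genes smaller without control 40, 2 without control 18 and 1 without control 69.

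BDS lanes were more spread, with an SD of 0.26 for Emr1 against a panel median of 0.29, and 109 of 283 genes had a smaller SD. Without BDS 17 it was 0.20 and without BDS 11 it was 0.17. The SD of Emr1 in control lanes was at most 0.12 with median-of-ratios factors (7 genes smaller), with the authors' values (1 gene smaller) and with any of the 6 housekeeping genes left out, and was 0.08 for the share of endogenous counts. Scaling to all 14 housekeeping genes gave 0.43 in control lanes (95 genes smaller) and 0.24 in BDS lanes, so that the order of the groups turned. The difference in spread was seen in the data and not tested.

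Ratios within a lane need no scaling, and they set Emr1 against 6 other macrophage genes. None of the 6 passed adjustment, and 4 of the 6 ratios had an unadjusted exact permutation p under 0.05. With 252 assignments and adjustment over 13 ratios, 1 ratio alone could not have passed 0.05, however large its difference. The lack of a pass therefore says little. How many of the tested genes give such a ratio to Emr1 was not counted, so the 4 of 6 have no panel share beside them. The partners in those 4 ratios, Itgam, Cx3cr1, Ptprc and Fcgr1, each had an unadjusted edgeR p under 0.05 themselves. Csf1r and Trem2 did not, and 28.3% of all tested genes had such a p. The 4 of 6 is therefore no result separate from the fold changes of the partners. Relative to Itgam, the alpha chain of complement receptor 3, Emr1 was 1.52-fold higher in BDS lanes (a log2 difference of 0.61, exact permutation p = 0.0397, adjusted p = 0.144 over 13 ratios, higher in 5 of 5 BDS lanes than the control mean). Relative to Cx3cr1, the fractalkine receptor, the log2 difference was 0.63 (exact permutation p = 0.0476, adjusted p = 0.144, higher in 5 of 5 lanes). That value was 0.41 without control 52 and 0.29 without control 52 and control 69. A ratio alone does not show which of its 2 genes differed. In the edgeR fit the log2 fold change was -0.56 ± 0.18 (SE) for Itgam and -0.63 ± 0.23 for Cx3cr1, against 0.09 for Emr1.

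In the other direction stood the ratios of Emr1 to Ptprc, the pan-leukocyte antigen CD45, and to Fcgr1, the high-affinity IgG receptor. Emr1 over Ptprc differed by -0.81 on the log2 scale (0.569-fold, exact permutation p = 0.0159, adjusted p = 0.144, lower in 5 of 5 BDS lanes than the control mean). Emr1 over Fcgr1 differed by -0.48 (exact permutation p = 0.0476, adjusted p = 0.144, lower in 5 of 5 lanes). The ratio to Csf1r, the receptor that keeps microglia alive, differed by -0.17 (exact permutation p = 0.540, adjusted p = 0.540). The ratio to the phagocytic receptor Trem2 differed by -0.22 (exact permutation p = 0.270, adjusted p = 0.351). Leaving out each pup in turn moved the difference for Csf1r between -0.36 (without control 69) and -0.037 (without control 1), that for Trem2 between -0.32 (without BDS 17) and -0.14 (without control 1), and that for Fcgr1 between -0.64 (without control 40) and -0.34 (without control 52). Without control 52 and control 69 together these were -0.48, -0.39 and -0.27. The groups overlapped in all 6 ratios. In the edgeR fit Ptprc itself was at 0.83 ± 0.26 (SE) and Fcgr1 at 0.50 ± 0.21. Csf1r was at 0.17 ± 0.22 and Trem2 at 0.28 ± 0.18, all against 0.09 for Emr1.

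**Figure D3:**
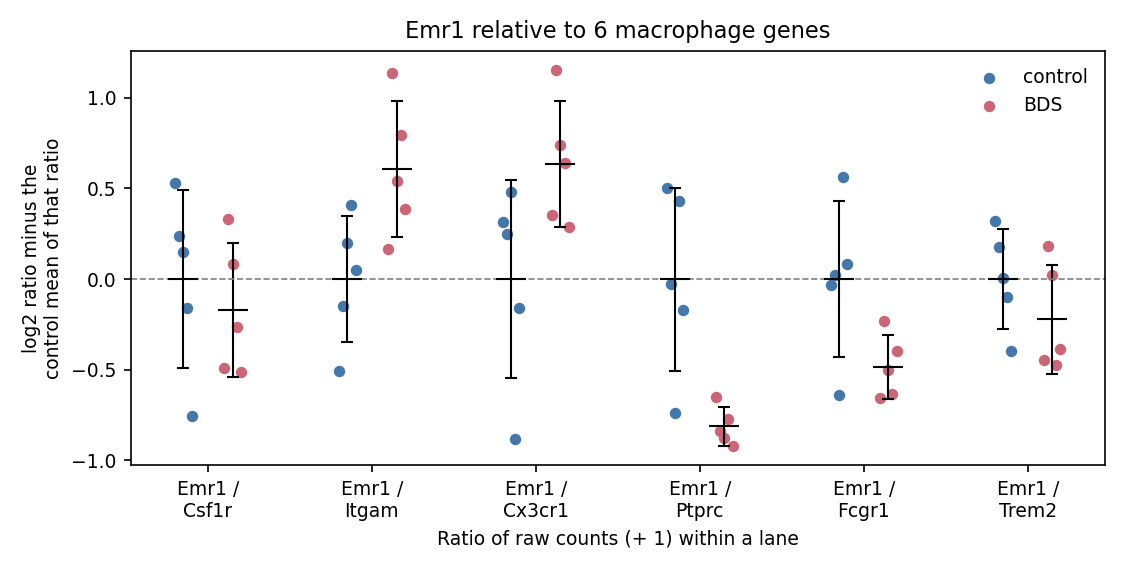
Log2 ratio of Emr1 to each of 6 macrophage genes within a lane, minus the control mean of that ratio, for control (blue) and BDS (red) pups, with bars for mean ± 1 SD (n = 5). BDS pups lie above the control mean in 5 of 5 lanes for Itgam and Cx3cr1 and below it in 5 of 5 for Ptprc and Fcgr1, and the groups overlap in each.

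The genes most like Emr1 across the 10 lanes were found by the SD of their log2 count ratio to it, with groups ignored. The closest of 282 was the Janus kinase gene Tyk2 with an SD of 0.17, followed by Ifi35, an interferon-induced gene, at 0.19, the receptor gene Notch2 at 0.20, Litaf at 0.21 and the protein kinase C gene Prkcd at 0.21. The median over all 282 genes was 0.46. The log2 fold changes of these 5 genes lay between -0.13 for Litaf and 0.25 for Prkcd. Of the 5 none had an unadjusted edgeR p under 0.05, which 28.3% of all tested genes had. An SD over all 10 lanes includes any difference between groups. The choice therefore favours genes whose fold change is near that of Emr1, and these values are no separate result. The macrophage genes used above were less alike, from Trem2 at 0.30 to Ptprc at 0.55. All these counts share the lanes and their depth.

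Cd97 was near background and exceeded the negative-control limit in 1 of 10 lanes, so it was not among the 283 genes tested. Its raw counts in the control lanes were 12 (pup 1), 16 (pup 18), 23 (pup 40), 2 (pup 52) and 4 (pup 69), all under the limits of 13.9 to 26.0 in those lanes. In the BDS lanes they were 16 (pup 11), 25 (pup 17), 26 (pup 24), 18 (pup 38) and 15 (pup 59). BDS 17 was the lane above its limit, of 16.7 counts, and BDS 24 was just under its limit of 26.1. In control 52 all 8 negative probes had at least as many counts as Cd97. The authors' deposited table likewise gives Cd97 as above background in 10% of samples.

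After scaling, Cd97 averaged 12.6 ± 2.11 normalized counts over control pups and 13.2 ± 4.05 over BDS pups (SD, n = 5 each, with p = 0.817 in an exact two-sided permutation test), and the groups overlapped. The highest value was 19.4, in BDS 11, the pup with the lowest Emr1, and the lowest was 9.32, in BDS 38. A fit of all 545 genes with no filter gave Cd97 a log2 fold change of -0.02 with a 95% interval from -0.72 to 0.68 (edgeR adjusted p = 0.981). That fit rests on counts close to those of the negative probes. The cDNA was amplified before counting and molecules were not tagged, so counts do not equal molecules.

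**Figure D4:**
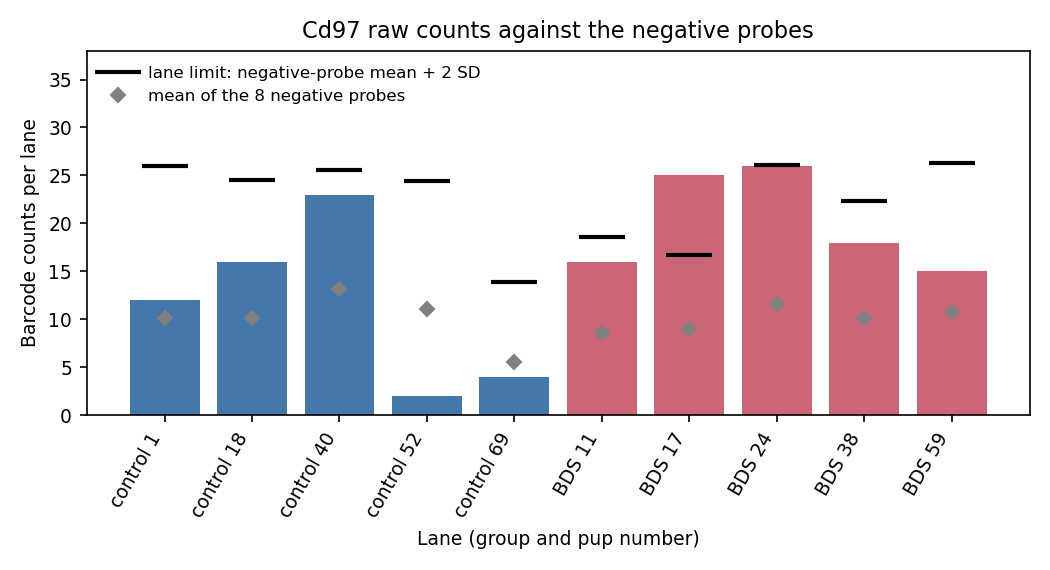
Raw barcode counts of Cd97 in each lane (bars, control blue and BDS red) with the mean of the 8 negative probes (grey diamonds) and the lane's limit of that mean plus 2 SD (black dashes). Cd97 exceeds the limit in BDS 17 only, and in control 52 and control 69 it lies below the mean of the negative probes.

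Although low, Cd97 counts followed lane depth, which the negative probes did not. Over the 10 lanes the correlation of log2(raw counts + 1) with the log2 housekeeping signal was 0.965 for Cd97 (Pearson; permutation p = 0.00015, adjusted over 3 relations 0.000225; Spearman rho 0.875, permutation p = 0.00181, adjusted 0.00271). For the mean of the negative probes it was 0.387 (permutation p = 0.26, adjusted 0.26; rho 0.190, permutation p = 0.603, adjusted 0.603). For Emr1 it was 0.992 (permutation p = 1e-05, the smallest that 100000 permutations give, adjusted 3e-05; rho 0.976, with the same p values). Without control 52 and control 69, the lanes farthest from the median depth, Pearson's r was 0.809 for Cd97, 0.369 for the negative probes and 0.985 for Emr1.

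The slope against depth was 0.888 for Cd97 and 1.07 for Emr1, where 1 means counts in proportion to depth, and 0.103 for the negative probes. Of the 262 endogenous genes that were not tested, 2 had a correlation above that of Cd97, and the median was 0.668. None of the 8 negative probes did, and their median was 0.224. With group as a term the slope was 0.886 ± 0.112 (SE) for Cd97, 1.08 ± 0.0638 for Emr1 and 0.137 ± 0.111 for the negative probes. Within control lanes alone it was 0.973 for Cd97, and within BDS lanes, which span a narrower range of depth, 0.406. No correlation was taken within a group, each of which holds 5 lanes.

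**Figure D5:**
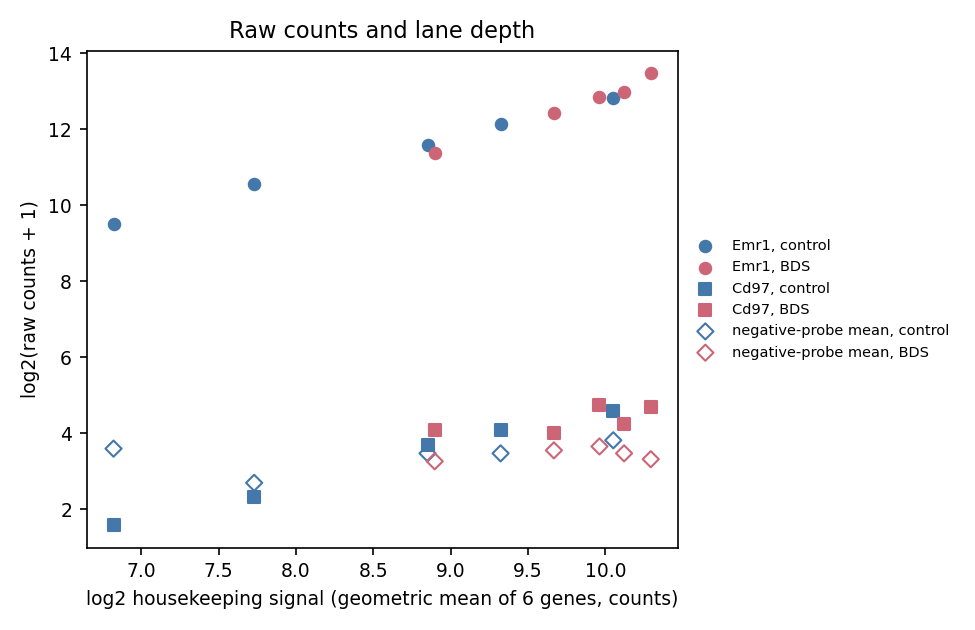
Log2(raw counts + 1) of Emr1 (circles), Cd97 (squares) and the mean of the negative probes (open diamonds) against the log2 housekeeping signal of each lane, control in blue and BDS in red. Emr1 and Cd97 rise with depth (slopes 1.07 and 0.888), while the negative probes stay nearly level (0.103).

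The log2 ratio of Cd97 to Emr1 within each lane is given as a description, since Cd97 was not above its limit in 9 of 10 lanes and the ratio cannot show whether the receptors differed in response. It averaged -8.07 ± 0.17 in control lanes and -8.27 ± 0.62 in BDS lanes (SD, n = 5 each), a difference of -0.20 (exact two-sided permutation p = 0.540, adjusted p = 0.540 over 13 ratios, lower in 4 of 5 BDS lanes than the control mean). BDS 11 had the highest value at -7.28, the other BDS lanes ran from -8.77 to -8.11, and the gap was 0.556 of the range of BDS lanes, under Dixon's critical value of 0.71. Without that lane the difference was -0.45 (exact permutation p = 0.0317, unadjusted), and with background subtracted it was 0.47 (exact permutation p = 0.262). Of the 6 ratios of Cd97 to the macrophage genes none passed adjustment, with adjusted p from 0.144 to 0.431.

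Of the molecules that Cd97 binds, 4 genes were on the panel and 2 were tested. The integrin chain genes Itgb1 and Itga5 had log2 fold changes of 0.65 ± 0.19 (edgeR adjusted p = 0.0706) and 0.54 ± 0.22 (edgeR adjusted p = 0.149), both with an unadjusted p under 0.05, which 28.3% of all tested genes had. Cd55 exceeded the limit in 0 of 10 lanes and Thy1, a surface protein of neurons and T cells, in 1. Neither was tested.

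Of 33 listed receptors with a membrane-spanning domain like that of Emr1, 26 were on the panel and 10 were tested. Their median log2 fold change was 0.52, against 0.09 for all 283 genes and 0.09 for Emr1. No member passed the adjusted p, and at an unadjusted p under 0.05, which 28.3% of all tested genes had, 4 were higher and 1 was lower. These were led by the chemokine receptor Cxcr6 at 0.85 ± 0.28, the chemerin receptor Cmklr1 at 0.62 ± 0.22 and Ccr2 at 0.59 ± 0.23 on the higher side, and Cx3cr1 at -0.63 ± 0.23 on the lower (edgeR adjusted p from 0.0964 to 0.137). Of 16 macrophage surface genes on the panel 11 were tested, 6 with higher and 5 with lower values in BDS lanes, and their median was 0.17. None passed the adjusted p, and 3 higher and 3 lower had an unadjusted p under 0.05. The 4 with the smallest p were Fcgr3, a low-affinity IgG receptor, at -2.12 ± 0.53, Ptprc at 0.83 ± 0.26, Itgam at -0.56 ± 0.18 and Cx3cr1 (edgeR adjusted p from 0.0642 to 0.126). Raw counts of Fcgr3 ran only from 81 to 204, although endogenous counts ran from 76237 to 968930. Its normalized counts averaged 343 ± 354 in control pups and 76.0 ± 18.3 in BDS pups (SD). Scaling raises such a count in a shallow lane, and the part of this in the Fcgr3 value was not tested.

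Markers of other cells that can carry Emr1 or Cd97 were set beside these values. The monocyte marker Ccr2 was at 0.59 ± 0.23 (edgeR adjusted p = 0.137), and Itga4, an integrin chain of monocytes and other leukocytes, exceeded the limit in 2 lanes and was not tested. Eosinophils, which also carry F4/80, had 1 marker on the panel, Ccr3, which exceeded the limit in 2 lanes. Of 6 neutrophil markers Camp and Ltf never exceeded the limit, and only Csf3r was tested, at -0.77 ± 0.24 (edgeR adjusted p = 0.0890). It made up most of that list's sum, 1531 to 3519 normalized counts in control lanes and 1073 to 1761 in BDS lanes.

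Lymphocyte, perivascular macrophage and vascular markers were mixed. None of 8 T cell markers was tested, with raw sums of 61 to 119 counts in control lanes and 62 to 123 in BDS lanes. After scaling these sums were 64.7 to 311 and 44.5 to 75.0, since background counts in a shallow lane are divided by a small factor (0.196 in control 52). Of 6 B cell markers Cd79b was tested, at -0.14 ± 0.22 (edgeR adjusted p = 0.676), and the normalized sums were 169 to 301 and 171 to 261. Of 3 perivascular macrophage markers Cd163 and Marco never exceeded the limit and Ccl24 was at -0.74 ± 0.36 (edgeR adjusted p = 0.184), with raw sums of 19 to 65 and 30 to 74 counts, or 35.3 to 184 and 26.9 to 36.3 after scaling. Of 4 endothelial markers 3 were tested, Pecam1 at -0.56 ± 0.24, Cd34 at -0.42 ± 0.24 and Cdh5 at 0.97 ± 0.37 (edgeR adjusted p from 0.128 to 0.258), with normalized sums of 765 to 1685 and 990 to 1085. The part of such cells in the Emr1 and Cd97 counts was not tested.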

How the data were processed

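Per the labels' protocols, cDNA from 2 ng of RNA per pup went through 5 PCR rounds before hybridization. The deposited raw table holds barcode counts per probe for 545 endogenous and 14 housekeeping genes, 8 negative and 6 positive probes. No source used here names the counting software. The authors' normalized values (a score: counts scaled to positive controls and housekeeping genes, per the series' design text, and rounded) come with a deposited percent of samples above background, a fold ratio of the group means and a t-test p-value, per the file headers. That design text says 5 housekeeping genes but names 6, and all 6 were used here. In the authors' values the lane factors matched 5 housekeeping genes without Sdha. Current symbols came from RefSeq accessions, matched without versions for both genes.

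The main test was edgeR 4.0.16's quasi-likelihood F test (two-sided, R 4.3.3) on raw counts with offsets from 6 housekeeping genes, and p-values were adjusted by Benjamini-Hochberg over all 283 tested genes. A standard error is the size of a log2 fold change divided by the root of its F. DESeq2 1.42.0 and limma 3.58.1 were alternatives. Log2 ratios used a pseudocount of 1 and exact permutation over all 252 assignments. The scripts were tested on simulated data. Lanes held 76237 to 968930 endogenous counts.

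The 2 genes, the gene lists and the tests were chosen with earlier results of these data known. Named genes were both receptors, the 6 ratio partners, tested list members (the 4 with the smallest p where over 8 were tested) and the 5 nearest genes by ratio SD. Cd55, Thy1, Itga4, Ccr3, Camp, Ltf, Cd163 and Marco are list members that were not tested, named for their lanes above the limit, and a further listed marker is not reported here. The nearest genes to Cd97 were Maf, C1qbp, Tal1, Ltb and Mif, with SDs of 0.27 to 0.29, on counts near background. Limits other than the lane mean plus 2 SD, background subtraction in the macrophage gene ratios, the fits without control 52 and control 69, the spread within groups and the slopes with group as a term were added after seeing the data.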

Additional observations from a re-analysis of the deposited data

How the results depend on the processing

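Emr1 missed the adjusted threshold under all 27 alternatives (adjusted p from 0.136 to 0.982), but its sign did not hold. It was negative with TMM (-0.045), median-of-ratios factors (-0.057), without Sdha (-0.10), with background subtracted (-0.042), with limma on the authors' values (-0.11) and with lane depth as a covariate (-0.017), and ran from -0.0040 (without BDS 17) to 0.17 (without BDS 11) as each pup was left out. The panel's count of genes at an adjusted p under 0.05, 0 in the planned fit, was 12 without Gapdh, 15 without Polr1b, 14 with positive controls alone and 25 with DESeq2. It ran from 0 to 47 as each pup was left out, with 47 without control 40 and 19 without BDS 11. Cd97 exceeded the limit in 1 lane, or in 5 with the lane mean plus 1 SD, 3 with pooled negative probes and 2 against the lane's highest negative probe. Its ratio to Emr1 turned to 0.47 with background subtracted and ran from -0.45 (without BDS 11) to -0.077 (without BDS 17). The causes were not tested. None of the 13 ratios passed adjustment under any of the 13 alternatives, and the 6 ratios of Emr1 kept their signs. With so few lanes, 1 ratio alone could not have passed adjustment in any of these alternatives. Because Cd97 was not tested in the planned fit, its fold change has no alternatives beyond the fit with no filter. No paired analysis was possible because the groups share no pup numbers.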
